A study of Mus musculus with 12 samples.

Results

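The immediate early genes Fos, Fosb, Jun, Junb, Jund, Egr1, Atf3, Ier2, Dusp1 and Zfp36 were followed in colonic epithelial cells of mice with and without the transcription factor TFEB. These 10 genes were taken by name from the 47632 genes of each of 3 deposited expression tables, and all 10 had a value above 0 in every group. The cells came from C57/BL6 mice of 2 genotypes, Tfeb flox/flox, in which both copies of Tfeb carry recombination sites but the gene is intact, and Tfeb ΔIEC, in which a Cre recombinase under the villin promoter removes Tfeb from the epithelium of the intestine. Mice were sampled on Day 0 (basal), Day 4 and Day 11 of an experiment with dextran sulfate sodium (DSS), a polymer given in the drinking water that injures the colonic epithelium. The labels put DSS at 2.5%, the study's methods at a lower concentration followed by plain water. Each of the 6 groups held 2 animals. On Day 0 they were 12 and 10 weeks old, on Day 4 both were 12 weeks old and on Day 11 both were 10 weeks old, so day and age cannot be told apart between Days 4 and 11. Epithelial cells were freed from the colon with EDTA before RNA was taken.

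Immediate early genes are transcribed within minutes of a stimulus from transcription factors that are already present in the cell, without new protein synthesis. Growth factor signalling through the MAP kinases, injury, heat and the handling of tissue all induce them, and most of their transcripts decay fast. FOS and JUN family proteins pair to form the AP-1 factor, EGR1 is a zinc finger activator, ATF3 is a stress factor that mostly represses, DUSP1 takes the phosphates off MAP kinases, and ZFP36 (tristetraprolin) binds AU-rich stretches in 3' untranslated regions and speeds the decay of those transcripts. In the intestine these genes are known as a readout of injury and of the release of cells from the tissue.

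Each group has 1 pooled FPKM value, the authors' value from both animals (fragments per kilobase of transcript and per sequencing depth, so a level per transcript length). These values carry neither a spread between animals nor a number of reads. The test that the authors ran between genotypes was not used, so no difference below was tested or set against replicate error. Differences are given as Tfeb ΔIEC minus Tfeb flox/flox on the scale of log2(FPKM + 1), which understates the change of low genes, and a gene is counted as higher or lower where that difference is at least 2-fold. Each table holds 1 day and is taken here as normalized on its own, so levels of different days are set side by side across separate normalizations. For Days 4 and 11 this is unsure. Days 4 and 11 also share values: of 11746 genes above 0 on both days in Tfeb flox/flox mice, 1679 (14.3%) have the same FPKM to the last digit, and of 12826 in Tfeb ΔIEC mice 1310 (10.2%) do, against 0 of 10391 and 0 of 11363 between Days 0 and 4. None of the 10 genes has an identical value on Days 4 and 11, but their ratios of Day 11 to Day 4 run only from 0.981 to 1.40 in Tfeb flox/flox mice and from 1.01 to 1.47 in Tfeb ΔIEC mice. Day 11 is therefore not read as an independent repeat of Day 4.

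Tfeb itself was listed at 0.901 FPKM in Tfeb flox/flox mice and 0.185 in Tfeb ΔIEC mice on Day 0, at 1.08 and 0 on Day 4, and at 1.18 and 0 on Day 11, which goes with the labels. All 8 epithelial markers were present, with Epcam between 1109 and 2018 FPKM and Krt19 between 3018 and 5591. Stromal and endothelial markers summed to 0.598 to 2.93 FPKM over 7 genes, 2 of which are at 0 in every group. The sum of FPKM over all genes was 975316 and 973878 on Day 0, 1464717 and 820344 on Day 4, and 1473485 and 827204 on Day 11, for Tfeb flox/flox and then Tfeb ΔIEC mice. Dividing each group by its sum lifts the median difference of all genes by 0.60 on the log2 scale on both Day 4 and Day 11, and directions that turn with it are named below.

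The sequences upstream of these genes were searched for short motifs, and no motif stood in every sequence searched. RefSeq promoter sequences on GRCm38.p6 were matched for 8 of the 10 genes, and those of Egr1 and Ier2 were not used here. Printed are the 250 bases before the start of Fos, Jun, Dusp1 and Zfp36. Fos is the most abundant member, and Jun is the member that was at least 2-fold lower on Day 4 than on Day 0 in both genotypes. Among the 8 windows only that of Dusp1 holds the letters of the E-box that TFEB and its relatives bind. Only that of Zfp36 holds those of a CArG box. Sites further upstream were not sought, so a motif missing from a window may lie outside it. Each printed sequence reads 5' to 3' on the strand of its gene. Capitals mark full matches to a motif: GC box, TATA box, cAMP response element, E-box or CArG box.
Fos, chr12:85473640-85473889, plus strand: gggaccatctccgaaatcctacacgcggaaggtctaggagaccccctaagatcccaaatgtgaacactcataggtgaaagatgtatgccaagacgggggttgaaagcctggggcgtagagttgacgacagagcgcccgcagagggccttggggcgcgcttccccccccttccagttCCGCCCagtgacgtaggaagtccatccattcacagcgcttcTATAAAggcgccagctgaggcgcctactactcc
Jun, chr4:95052223-95052472, minus strand: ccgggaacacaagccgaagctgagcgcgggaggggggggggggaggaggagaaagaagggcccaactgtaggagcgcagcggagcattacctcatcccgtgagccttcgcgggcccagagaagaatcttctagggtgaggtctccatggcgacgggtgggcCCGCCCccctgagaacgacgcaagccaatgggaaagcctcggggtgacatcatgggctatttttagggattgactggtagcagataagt
Dusp1, chr17:26508473-26508722, minus strand: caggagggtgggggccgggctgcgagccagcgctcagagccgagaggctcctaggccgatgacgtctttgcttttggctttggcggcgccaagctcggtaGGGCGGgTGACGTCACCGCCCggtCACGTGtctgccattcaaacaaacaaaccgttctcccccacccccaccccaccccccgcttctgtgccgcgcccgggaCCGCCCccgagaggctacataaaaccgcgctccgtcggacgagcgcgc
Zfp36, chr7:28379229-28379478, minus strand: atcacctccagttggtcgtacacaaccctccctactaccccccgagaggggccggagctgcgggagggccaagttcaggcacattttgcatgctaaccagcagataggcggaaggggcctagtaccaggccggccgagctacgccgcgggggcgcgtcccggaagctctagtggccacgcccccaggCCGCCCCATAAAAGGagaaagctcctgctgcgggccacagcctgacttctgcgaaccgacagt

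Motifs were sought on both strands in the 250 bases before the start of 32851 mouse genes. The GC box GGGCGG stood in 6 of the 8 promoters, all but those of Junb and Jund, and in 32.7% of all promoters. The core of the cAMP response element, TGACG, stood in 5 of 8 (Fos, Fosb, Junb, Atf3 and Dusp1), against 17.8% of all. The full element TGACGTCA, which contains this core, was found only in Dusp1, where its match begins 143 bases before the start, and in 1.55% of all promoters. The E-box CACGTG was again found only in Dusp1, 126 bases before the start, and in 6.02% of all. The TATA box TATAAA was found only in Fos, 33 bases before the start, against 12.4% of all. The CArG box, bound by serum response factor, was found only in Zfp36, 58 bases before the start, where it overlaps the GC box, against 1.47% of all. The exact letters TGANTCA of an AP-1 site were in 0 of the 8 windows and in 6.75% of all. Other forms of this site were not sought. These are matches of letters in a short window and say nothing about binding. The share of G and C was 47.6% in Jund and 58.4% to 68.8% in the other 7, beside a median of 52.4% over all promoters. The windows rest on the RefSeq starts: the start of Jund in GENCODE lies 1210 bases downstream, and GENCODE extends Atf3, Dusp1 and Zfp36 upstream of theirs by 34706, 53656 and 1025 bases.

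A further motif was sought in the transcripts, and the members were not alike in it. The pentamer AUUUA, the core of the AU-rich elements that ZFP36 binds, occurs in the annotated 3' untranslated region of the longest transcript of all members but Ier2. Fos, Jun and Dusp1 have 4 copies each, Atf3 and Zfp36 have 3, Junb and Egr1 have 2, and Fosb and Jund have 1. Of 4368 genes that reached 5 FPKM in some group and have such a region annotated, 59.7% have at least 1 copy and 26.9% have at least 3. Per kilobase of that region Dusp1 has 5.80 copies, Fos 4.91, Junb 4.12, Zfp36 3.88, Jun 3.24, Atf3 2.53 and Jund 1.88. All these genes together have 1.68, while Egr1 has 1.64, Fosb 0.466 and Ier2 0.

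Fos was the most abundant member in all 6 groups. Its level was 92.6 FPKM in Tfeb flox/flox mice and 85.5 in Tfeb ΔIEC mice on Day 0, 109 and 118 on Day 4, and 112 and 121 on Day 11. As deposited, the genotypes lay close together on each day, and each value exceeded that of 93.9% to 96.1% of the genes above 0 in its group. The difference between genotypes was -0.11 on Day 0 and 0.11 on Days 4 and 11. With values divided by their sum it was 0.94 on Day 4 and 0.93 on Day 11, just under 2-fold, and against genes of like length it was -0.32 and -0.41. Over the 6 groups Fos spanned 0.50 on the log2 scale, and only 3.16% of the 5575 genes that reached 5 FPKM in some group spanned as little. The median span of these genes was 1.82. Divided by the sums, Fos spanned 0.97 and 13.6% of genes spanned as little, beside a median of 1.89. Other members were less narrow. For Dusp1, Ier2, Jun and Egr1 these shares were 14.8%, 24.1%, 38.8% and 40.4% as deposited. With values divided by their sum they were 29.4%, 37.9%, 56.1% and 14.7%. Fos lies on chromosome 12 at 85473890 to 85477273 (mm10) and has 4 exons.

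Fosb, a close relative of Fos that also needs a JUN partner, was present at low level. It had 1.82 FPKM in Tfeb flox/flox mice and 3.26 in Tfeb ΔIEC mice on Day 0, 1.45 and 0.920 on Day 4, and 1.76 and 1.09 on Day 11. It was thus higher in Tfeb ΔIEC mice on Day 0 and lower on the later days, with differences of 0.59, -0.35 and -0.40, all under 2-fold. The 2 negative differences turned to 0.09 and 0.08 when values were divided by their sum.

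Jun, the prototype partner of FOS, was the only member at least 2-fold lower on Day 4 than on Day 0 in both genotypes. It had 41.1 FPKM in Tfeb flox/flox mice and 45.6 in Tfeb ΔIEC mice on Day 0, 15.4 and 21.6 on Day 4, and 18.0 and 26.8 on Day 11. The levels of Days 4 and 11 lay below those of Day 0 in either genotype, and Tfeb ΔIEC mice were above Tfeb flox/flox mice on each day. The differences between genotypes were 0.14, 0.46 and 0.55, and divided by the sums the later ones were 1.25 and 1.34. Against genes of like length the 3 differences were -0.12, -0.03 and 0.01. From Day 0 to Day 4 the difference of Jun was -1.36 in Tfeb flox/flox mice and -1.04 in Tfeb ΔIEC mice, across separate normalizations, and -1.16 and -0.84 relative to the median of all genes. With values divided by their sum the step was -1.91 and -0.81, and against Day 11 as deposited it was -1.15 and -0.74, so under none of these alternatives was it past 2-fold in Tfeb ΔIEC mice. Jun has 1 exon and shares its deposited locus with the antisense gene Junos, listed at 0 in all 6 groups. The library kit does not mark strand, so reads of a gene and an antisense partner cannot be told apart.

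Junb, which pairs with FOS proteins but is a weaker activator than JUN, had 37.4 FPKM in Tfeb flox/flox mice and 43.0 in Tfeb ΔIEC mice on Day 0, 41.6 and 31.5 on Day 4, and 49.8 and 43.3 on Day 11. Its values exceeded those of 90.2% to 92.6% of the genes above 0, and its 6-group span was 0.65, a span that 6.64% of genes do not exceed (0.86 and 9.92% with values divided by their sum). The differences between genotypes were 0.20, -0.39 and -0.20, and the negative ones became 0.42 and 0.62 with values divided by their sum.

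Jund, usually a broadly expressed family member, was near the bottom of the group. It had 0.305 FPKM in Tfeb flox/flox mice and 0.286 in Tfeb ΔIEC mice on Day 0, 1.55 and 0.482 on Day 4, and 2.16 and 0.694 on Day 11. On Day 0 neither value reached the 1 FPKM that a gene needed in either group to be counted. On the later days Tfeb flox/flox mice were above Tfeb ΔIEC mice, with differences of -0.78 and -0.90, and values divided by their sum gave -0.37 and -0.42. Gm11175, an antisense transcript that overlaps Jund, was listed at 0 in Tfeb flox/flox mice and at 0.895 in Tfeb ΔIEC mice on Days 4 and 11.

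**Figure D1:**
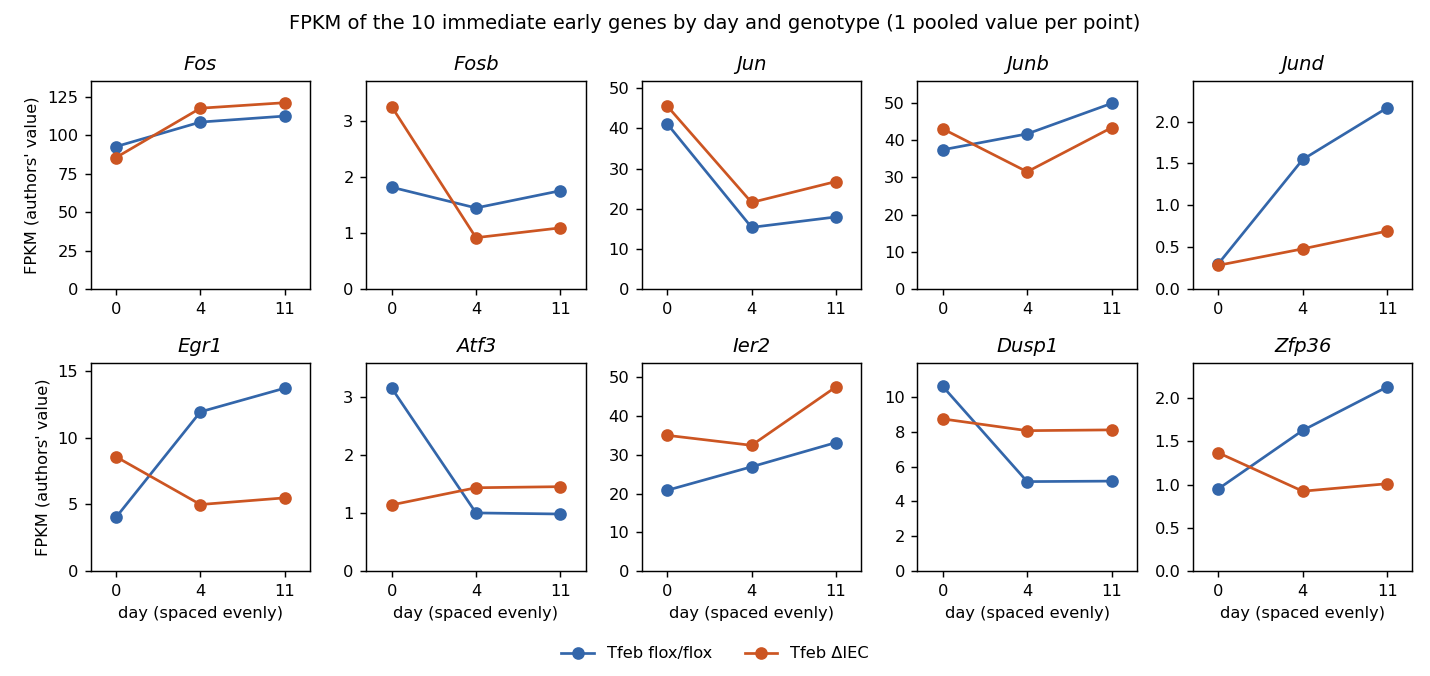
FPKM of each of the 10 genes (vertical axes, each from 0 and with its own scale) on Days 0, 4 and 11 (horizontal axis, spaced evenly), with 1 pooled value per genotype and day in blue for Tfeb flox/flox and orange for Tfeb ΔIEC mice and no error bars. The lines of Fos stay close together between 85.5 and 121 FPKM, those of Jun drop in both genotypes after Day 0, and those of Egr1 cross between Day 0 and Day 4.

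Summed over the 5 AP-1 genes, the level as deposited differed little between groups while its make-up did not stay the same. The sum was 173 FPKM in Tfeb flox/flox mice and 178 in Tfeb ΔIEC mice on Day 0, 169 and 172 on Day 4, and 184 and 193 on Day 11. Scaled to an equal sum over all genes, it was 178 and 182 on Day 0 but 115 and 210 on Day 4, and 125 and 233 on Day 11, so the closeness of the genotypes on the later days holds for the deposited scale only. Fos made up 53.5% and 48.1% of it on Day 0, 64.4% and 68.3% on Day 4, and 61.1% and 62.8% on Day 11. Jun made up 23.7% and 25.7% on Day 0, 9.13% and 12.6% on Day 4, and 9.77% and 13.9% on Day 11. The ratio of Fos to Jun, which no scaling of a whole group can alter, was 2.25 and 1.88 on Day 0, 7.05 and 5.44 on Day 4, and 6.25 and 4.52 on Day 11. In both genotypes this ratio was higher on the later days, and on each day it was higher in Tfeb flox/flox than in Tfeb ΔIEC mice.

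**Figure D2:**
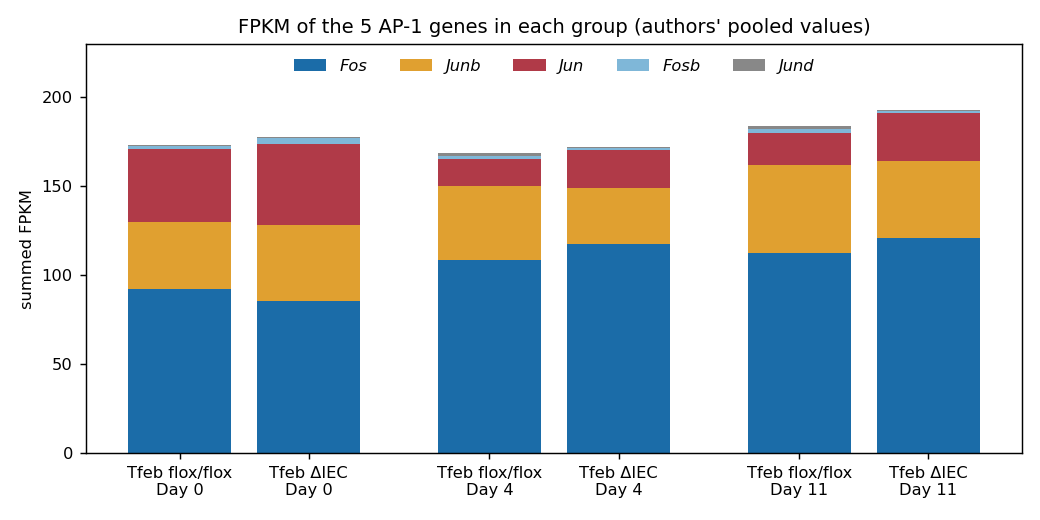
Stacked bars of the FPKM of Fos, Junb, Jun, Fosb and Jund (vertical axis, from 0) in each of the 6 groups (horizontal axis), as the authors' pooled values with no error bars. The bars reach 169 to 193 FPKM, and the segment of Jun is 23.7% and 25.7% of the bar on Day 0 but 9.13% to 13.9% on Days 4 and 11.

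On the scale of log2(FPKM + 1) Egr1 was the only member past 2-fold between genotypes, on Days 4 and 11. As plain ratios of FPKM, Tfeb flox/flox to Tfeb ΔIEC mice, Egr1 stood at 2.39 and 2.50 on those days, Jund at 3.21 and 3.12 and Zfp36 at 1.76 and 2.11. On Day 0 the ratio was 2.77 for Atf3, and for Egr1 the ratio of Tfeb ΔIEC to Tfeb flox/flox mice was 2.13. It had 4.02 FPKM in Tfeb flox/flox mice and 8.57 in Tfeb ΔIEC mice on Day 0, 11.9 and 4.99 on Day 4, and 13.7 and 5.49 on Day 11. Tfeb ΔIEC mice were the higher on Day 0 and the lower on Days 4 and 11. The differences were 0.93, -1.11 and -1.18. Whether the difference of Day 4 departs from that of Day 0 was not tested. Relative to the median of all genes Egr1 stood at -1.17 on Day 4, and at -1.03 with values divided by their sum, where its own difference was -0.37. Of all genes that reached 1 FPKM on Day 4, 23.4% had a lower difference than Egr1. Differences on that day moved with transcript length: the running median over genes of like length was 0.03 at the length of Ier2 (1522 nt) and 0.62 at that of Egr1 (3760 nt). Egr1 stood at -1.74 from genes of its length, Zfp36 at -1.19 and Jund at -1.12.

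Atf3, induced by endoplasmic reticulum and amino acid stress as well as by injury, had 3.16 FPKM in Tfeb flox/flox mice and 1.14 in Tfeb ΔIEC mice on Day 0, 1.004 and 1.44 on Day 4, and 0.985 and 1.46 on Day 11. The Day 0 value of Tfeb flox/flox mice stood apart, and the other 5 lay within 0.985 to 1.46. The differences were -0.96, 0.28 and 0.31. Relative to the median of all genes the Day 0 difference was -1.02, past 2-fold.

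Ier2, a short nuclear protein encoded by 1 exon, had 20.9 FPKM in Tfeb flox/flox mice and 35.0 in Tfeb ΔIEC mice on Day 0, 26.9 and 32.5 on Day 4, and 33.2 and 47.6 on Day 11. Tfeb ΔIEC mice had the higher value on each day. The differences of 0.72, 0.26 and 0.51 were all under 2-fold, but with values divided by their sum those of Days 4 and 11 were 1.07 and 1.31, past 2-fold.

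Among the genes that end the response, Dusp1 had 10.6 FPKM in Tfeb flox/flox mice and 8.75 in Tfeb ΔIEC mice on Day 0, 5.14 and 8.07 on Day 4, and 5.17 and 8.11 on Day 11. Tfeb ΔIEC mice varied between 8.07 and 8.75 FPKM over the days, while the Day 0 value of Tfeb flox/flox mice was above its later values. The differences were -0.25, 0.56 and 0.56, and with values divided by their sum the later ones were 1.26 and 1.26, past 2-fold. Zfp36 had 0.951 and 1.37 FPKM on Day 0, 1.63 and 0.923 on Day 4, and 2.13 and 1.01 on Day 11. Its differences were 0.28, -0.45 and -0.64, and the Day 4 value became 0.01 with values divided by their sum. In GENCODE Zfp36 overlaps the antisense transcript Gm44710.

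On Day 0 the order of the levels was Fos, Jun, Junb, Ier2, Dusp1 and Egr1 from the top in both genotypes. On Days 4 and 11 Junb and Ier2 stood above Jun in both genotypes, with Junb above Ier2 in Tfeb flox/flox mice and below it in Tfeb ΔIEC mice, and Egr1 stood above Dusp1 in Tfeb flox/flox but below it in Tfeb ΔIEC mice. Fosb, Jund, Atf3 and Zfp36 had at most 3.26 FPKM in any group. Whether neighbours in this order differ beyond their spread is unknown, since no spread between animals is given.

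Counted together on the deposited scale, the members differed little between genotypes, also on the days when 51.7% and 51.8% of all genes were past 2-fold. No test stands behind this contrast. On Day 0, 0 of the 9 members that reached 1 FPKM were at least 2-fold higher and 0 were 2-fold lower in Tfeb ΔIEC mice, where 13.5% and 16.1% of 9993 genes were. On Day 4, 0 of 10 were higher and 1, Egr1, was lower, against 25.6% and 26.1% of 9371 genes. On Day 11, 0 of 10 were higher and 1, again Egr1, was lower, against 26.1% and 25.7% of 9365 genes. Within 1.5-fold lay 5 of 9 members on Day 0, 8 of 10 on Day 4 and 7 of 10 on Day 11, against 47.1%, 29.3% and 28.8% of all genes. Divided by the sums, these were 5 of 9, 5 of 10 and 4 of 10, against 46.9%, 25.7% and 25.7%. The median difference of the members was 0.20, -0.12 and -0.05 on Days 0, 4 and 11, beside 0.06, 0.06 and 0.08 for all genes. Divided by the sums, the medians of Days 4 and 11 turned to 0.56 and 0.67, beside 0.66 and 0.68 for all genes. With values divided by their sum, 3 members (Jun, Ier2 and Dusp1) were higher and 0 lower on Day 4, and all genes split into 40.5% higher and 15.2% lower. On Day 11 the same scaling gave 3 higher and 0 lower members, and 41.0% and 14.9% of all genes. Relative to the median of all genes 5 members were above and 5 below on Day 4, and relative to genes of like length 2 were above (Ier2 and Dusp1) and 8 below.

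**Figure D3:**
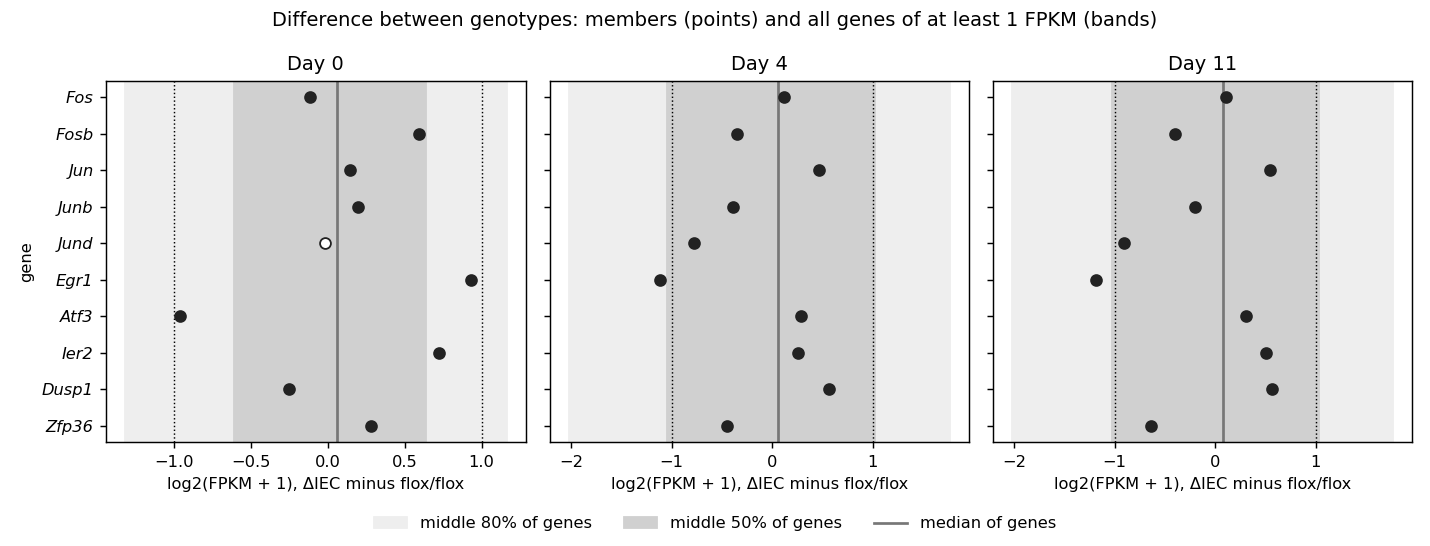
Difference in log2(FPKM + 1) between Tfeb ΔIEC and Tfeb flox/flox mice (horizontal axis) for each of the 10 genes (points) on Days 0, 4 and 11 (panels, each with its own horizontal scale), over bands that hold the middle 50% and 80% of all genes of at least 1 FPKM. An open point marks a gene under 1 FPKM in both genotypes, and dotted lines mark 2-fold. Only Egr1, at -1.11 and -1.18, lies past a dotted line, on Days 4 and 11.

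Set side by side across separately normalized tables, the levels of Day 4 against Day 0 gave 1 member at least 2-fold higher in Tfeb flox/flox mice (Egr1, 1.36) and 2 lower (Jun and Atf3, -1.36 and -1.06), of 10 that reached 1 FPKM on either day. Of 9617 genes, 17.5% were higher and 25.7% lower. In Tfeb ΔIEC mice 0 of 9 were higher and 2 were lower (Fosb and Jun, -1.15 and -1.04), against 9.26% and 15.6% of 9617 genes. Relative to the median of all genes these 2 were at -0.95 and -0.84, within 2-fold. Jund was at 0.97 and Dusp1 at -0.92 in Tfeb flox/flox mice, just under 2-fold, but Jund was at 1.17 relative to the median of all genes and Dusp1 at -1.40 with values divided by their sum. Fos was at 0.23 in Tfeb flox/flox mice and 0.45 in Tfeb ΔIEC mice. Divided by the sums, Egr1 of Tfeb flox/flox mice was at 0.84, no longer past 2-fold, and relative to the median of all genes Atf3 was at -0.85, also within 2-fold. On the scale of the sums Fos, Junb and Ier2 of Tfeb flox/flox mice turned to -0.35, -0.42 and -0.21, and Ier2 and Dusp1 of Tfeb ΔIEC mice, at -0.11 and -0.10 as deposited, turned to 0.13 and 0.12. The median of the members was 0.19 in Tfeb flox/flox mice and -0.30 in Tfeb ΔIEC mice, beside -0.20 and -0.20 for all genes.

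A wider list held 42 other immediate early genes. On Day 4, 24 of them reached 1 FPKM, of which 6 were higher and 5 lower in Tfeb ΔIEC mice, with a median of -0.12, near the 25.6% higher and 26.1% lower among all genes. Sgk1, a kinase of ion transport, had 1.99 FPKM in Tfeb flox/flox mice and 18.3 in Tfeb ΔIEC mice, a difference of 2.69. Klf10, a TGF-β-induced repressor, had 1.42 and 11.2, and Errfi1, a feedback inhibitor of the EGF receptor, had 0.729 and 5.94. Klf4, a factor of epithelial differentiation, had 9.65 and 3.94 FPKM, Nfkbia, the inhibitor of NF-κB, 29.3 and 13.4, and Mcl1, an antiapoptotic BCL2 relative, 5.203 and 2.04. Sgk1 was also 2-fold higher on Day 0 (12.5 and 31.1 FPKM), and Nfkbia 2-fold lower (36.6 and 17.4). Egr3, Klf2, Ctgf, Dusp2 and Cebpb were listed at 0 in all 6 groups. These 5 genes were named after their values were seen.

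Of 25 kinases and factors upstream of the immediate early genes, 16 reached 1 FPKM on Day 4, and 7 were higher and 1 lower in Tfeb ΔIEC mice, with a median of 0.37, where 25.6% and 26.1% of all genes were. Map2k1 (MEK1) had 15.7 FPKM in Tfeb flox/flox mice and 88.6 in Tfeb ΔIEC mice, while Map2k2 (MEK2), which phosphorylates the same ERK kinases, had 101 and 43.8. Map2k3, a kinase of p38, had 14.9 and 34.9 FPKM. Srf, the factor that binds CArG boxes, had at most 0.516 FPKM in any group. Of 15 other AP-1 and ATF factors, 8 reached 1 FPKM, with 1 higher and 2 lower and a median of -0.36. Fosl1, Fosl2, Maff and Mafk stand in this list and in the wider list of immediate early genes, so Mafk (0.214 and 3.08 FPKM) is the 1 higher gene here and is also counted there. Among them Atf4, the factor of the amino acid response, had 19.3 and 20.0 FPKM. With values divided by their sums, which put 40.5% of all genes higher and 15.2% lower, the wider list had 8 higher and 1 lower and a median of 0.37, the upstream list 8 higher and 0 lower and a median of 0.998, and the AP-1 and ATF list 1 higher and 0 lower and a median of 0.20. On that scale Sgk1 was at 3.31 and Map2k1 at 3.22, while Klf4, Nfkbia, Mcl1 and Map2k2 stayed lower but within 2-fold, at -0.39, -0.28, -0.38 and -0.36.

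Heat shock genes, which also respond to the handling of cells, lay on both sides between genotypes. Of 11, 10 reached 1 FPKM on Day 4, and 3 were higher and 4 lower in Tfeb ΔIEC mice, against 25.6% and 26.1% of all genes. Hsph1, Dnaja1 and Hspd1 had 0.373, 3.42 and 4.68 FPKM in Tfeb flox/flox mice and 5.57, 13.2 and 12.9 in Tfeb ΔIEC mice. Hsp90ab1, the constitutive HSP90, had 1793 and 616 FPKM, Hsp90aa1 had 27.7 and 6.51, and Hspe1 had 36.3 and 9.50. Divided by the sums 4 were higher and 2 lower, against 40.5% and 15.2%, and Hsp90ab1 was at -0.71. Hspa1a and Hspa1b, the inducible HSP70 genes, which are near-identical copies and so uncertain, had at most 3.89 FPKM in any group.

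**Figure D4:**
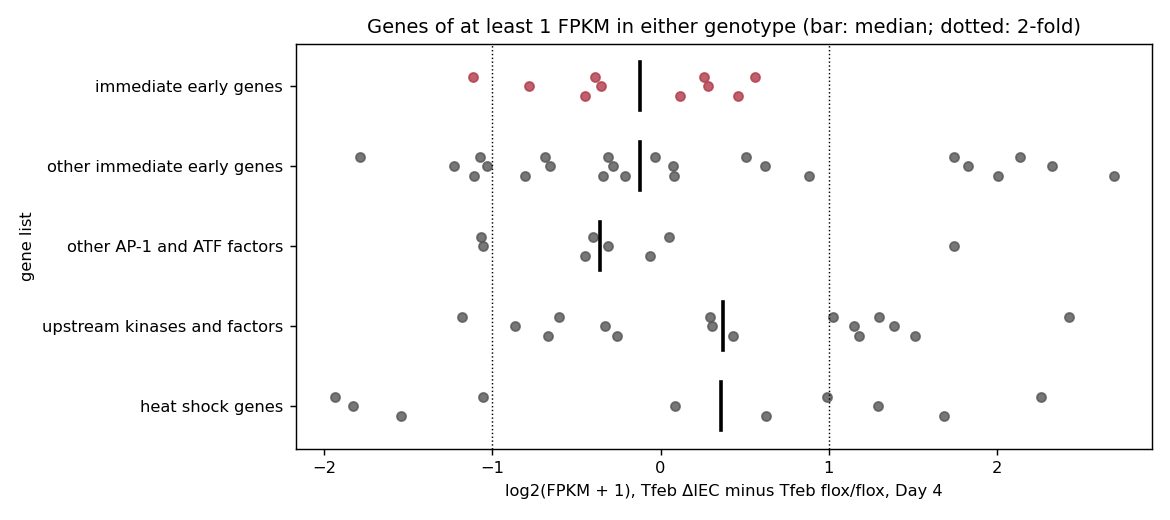
Difference in log2(FPKM + 1) between Tfeb ΔIEC and Tfeb flox/flox mice on Day 4 (horizontal axis) for each gene of at least 1 FPKM in 5 gene lists (rows, spread vertically only for legibility), with a bar at the median and dotted lines at 2-fold. The 10 immediate early genes lie between -1.11 and 0.56, and the 24 other immediate early genes between -1.78 and 2.69.

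Several markers of cell types differed between genotypes by more than any member did. As background on Day 4, 25.6% of all genes were higher and 26.1% lower, or 40.5% and 15.2% with values divided by their sum. On that day the epithelial genes Krt20, Vil1 and Cdh1 had 101, 30.6 and 24.5 FPKM in Tfeb flox/flox mice and 931, 224 and 164 in Tfeb ΔIEC mice, and 3 of 8 epithelial markers were higher and 0 lower (5 and 0 with values divided by their sum). Of 6 colonocyte and goblet cell markers 3 were higher, the chloride exchanger Slc26a3 (33.3 and 271 FPKM), the mucin Muc2 (645 and 1894) and the water channel Aqp8 (25.3 and 69.3), and 0 were lower. Car4 went the other way but within 2-fold, at 232 and 147 FPKM. On Day 0 the same list had 1 higher and 2 lower, against 13.5% and 16.1% of all genes, and Aqp8 was among the lower (198 and 30.1 FPKM). Of 7 markers of the small intestine and Paneth cells, 5 reached 1 FPKM, and 3 were lower and 0 higher: the defensin Defa24 (1610 and 3.18 FPKM), one of a multigene family whose reads can be shared, the ileal bile acid binding protein Fabp6 (24.0 and 2.65) and Mptx2 (19.9 and 2.57). Defa24 and Fabp6 are not typical of the labelled colon. On Day 0 all 5 that reached 1 FPKM were lower, with a median of -2.60, against 16.1% of all genes. Defa24 had 29.6 and 0 FPKM on that day, Fabp6 18.8 and 1.74, and Fabp2 1882 and 891. Of 9 immune markers 3 reached 1 FPKM on Day 4, and 2 were higher, Cd74 and S100a8. The other, Lyz2, had 2.88 and 1.77 FPKM, the opposite direction but within 2-fold. The sum of the list was 36.2 and 19.8 FPKM on Day 0, 24.4 and 169 on Day 4, and 25.04 and 179 on Day 11. Most of it was Cd74, the invariant chain of MHC class II, at 20.5 and 165 FPKM on Day 4. S100a8, a calprotectin subunit of neutrophils, was listed at 0 in all but Tfeb ΔIEC mice on Days 4 and 11, which had 1.15 and 1.14 FPKM, and its partner S100a9 was listed at 0 throughout. Ptprc (CD45) had at most 0.790 FPKM. The part of these markers in the values of the immediate early genes was not tested, and in a bulk sample fewer cells of a type and less RNA per cell cannot be told apart.

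The pattern of the members over the 6 groups was compared with that of every gene of at least 5 FPKM in any group, using the mean of the members' log2(FPKM + 1), each centred on its own mean. That mean moved only between -0.18, in Tfeb ΔIEC mice on Day 4, and 0.13, in Tfeb flox/flox mice on Day 11. The closest genes were Cul1 (Pearson r = 0.92), Ssr2 (0.91), Hes6 (0.91), Sdsl (0.87) and Med8 (0.87), over 6 group values that share 3 normalizations and, on Days 4 and 11, some identical numbers. They were picked as the highest among 5575 genes, and a search this wide over so few values can give high r by itself. Of the members, 6 reached that level, and they were not alike among themselves by this measure. Each is itself part of that mean, and Junb had r = 0.91 with it and Egr1 0.59, while Ier2 had 0.23, Jun 0.22, Dusp1 -0.24 and Fos -0.39.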

How the data were processed

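RNA-seq data of colonic epithelial cells from 12 mice were used, 2 for each of 6 groups, with genotype and day taken from the labels. The authors prepared full-length cDNA with a SmartSeq2 variant, which does not mark strand, and per the labels used TopHat2 2.0.14 and Cuffdiff 2.1.1 with mm10. The 3 deposited tables hold 1 FPKM value per genotype, pooled over animals, for 47632 genes. Their further columns (the authors' fold changes, p-values, q-values and status) were not used. Depth is unknown.

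Genes of at least 1 FPKM in either group were kept, differences were taken on log2(FPKM + 1), and a change of at least 2-fold (alternatively 4-fold) was counted. Named were all members, and of each other list the 3 genes with the largest difference in each direction on Day 4 that were at least 2-fold with at least 5 FPKM. Of the genes this rule names, 1 is not reported here. Genes named outside this rule are examples chosen after their values were seen. The members and lists were chosen with earlier results of these data known. Transcript length, exons and 3' untranslated regions came from GENCODE M21 (47218 genes matched), promoters from RefSeq. Scripts (Python 3.11.15, pandas 2.3.3, numpy 2.4.6) were tested on simulated data.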

Additional observations from a re-analysis of the deposited data

How the results depend on the processing

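No paired analysis was possible because each genotype and day has 1 pooled value, and for the same reason leaving out a replicate was not run. The range over animals, the depth and the precision of every value stay unknown. Of 118 recomputed counts and medians of the members 80 stayed and 38 moved, and of 189 values of single genes 160 stayed and 29 moved. A count or a difference stayed if it was within 1.5-fold of the reported one without a change of sign. The values of single genes are differences between genotypes. Among these only Egr1 on Days 4 and 11 was past 2-fold as reported, and it kept its sign, while several smaller differences turned. In most cases the counts moved by 1 or 2 genes, and the cause was not tested.

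Percentages in parentheses are the shares of all genes past the same threshold under the same setting. Between genotypes, a pseudocount of 0.1 FPKM gave 1 member higher (21%) and 1 lower (20.5%) in Tfeb ΔIEC mice on Day 0, 2 lower on Day 4 (30.7%) and 3 lower on Day 11 (30.4%), and a pseudocount of 5 gave 0 lower on Days 4 and 11 (13.6% each). Centring on the median of all genes gave 1 lower on Day 0 (17.2%). Subtracting the running median over transcript length gave 1 lower on Day 0 (11.5%), with a median of -0.0061, and 3 lower on Day 4 (20.6%) and Day 11 (21%). Dividing by the sum gave 3 higher on Day 4 (40.5%) and Day 11 (41%) and 0 lower (15.2% and 14.9%), with medians of 0.56 and 0.67. A filter of 10 FPKM gave medians of 0.11 on Days 4 and 11, and at 4-fold 0 were lower on either day (10.3% and 10.2%).

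Between Day 4 and Day 0 in Tfeb flox/flox mice, 2 members were higher at a pseudocount of 0.1 (21.8%), 0 higher (8.15%) and 1 lower (7.14%) at 5, 1 lower with a filter of 10 FPKM (22.7%), 2 higher (22.1%) and 1 lower (19.2%) after centring, 0 higher after division by the sum (9.37%), with a median of -0.39, 0 higher (4.41%) and 0 lower (5.53%) at 4-fold, and 2 higher with Day 11 as the later day (17.8%). In Tfeb ΔIEC mice, 0 were lower at a pseudocount of 5 (2.65%), after centring (10.5%) and at 4-fold (2.31%), and 1 was lower with a filter of 10 FPKM (10.2%), after division by the sum (12.7%) and with Day 11 as the later day (15.6%).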
